A study of Rattus norvegicus with 12 samples.

Results

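Glycolysis, the transport of glucose and lactate across the plasma membrane, and the pentose phosphate pathway were described through 37 genes. They were chosen by name and not by a threshold on their values, though with earlier results of these data known. Every probe on the array whose gene symbol, current or former, was among these names was taken. Of the 37 genes, 33 had a named probe (34 probes in all, since Aldoa had a pair), out of 13337 genes with a named probe. Hk1, Pgam1, Pgd and Tkt had none and were not analysed here.

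RNA was measured on a whole-transcriptome bead array (RatRef-12, Illumina) in 12 cultures of a pair of tumorigenic rat hepatic cell lines, with 3 arrays in each of 4 groups. The groups were GN5 cells with 50 nM rapamycin for 24 h, GN5 cells with the dimethyl sulfoxide vehicle for 24 h, H5D cells with 50 nM rapamycin for 24 h, and H5D cells with vehicle for 24 h. GN5 was obtained by chemical transformation of the rat liver epithelial line WB-F344 and grew in DMEM/F12 with glutamine. H5D was obtained from an azo-dye hepatocellular carcinoma of a Fischer rat and grew in Waymouth MB 752/1. Both media held fetal bovine serum. Line and medium cannot be told apart in any comparison of GN5 with H5D, whereas treatments within a line shared a medium. Each line stands for 1 tumor or transformation event, and the 3 RNA samples of a group came from plates of the same line, so p-values measure the spread between plates. In such bulk samples, fewer cells of a kind and less RNA per cell cannot be told apart.

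Glycolysis splits glucose into pyruvate and yields ATP without oxygen. Cells take glucose up through Glut transporters, trap it with hexokinase, commit it at phosphofructokinase and release pyruvate at pyruvate kinase, after which lactate dehydrogenase can reduce pyruvate to lactate for export by monocarboxylate transporters. The pentose phosphate pathway branches off after hexokinase to make NADPH and ribose. Rapamycin inhibits mTOR complex 1, a nutrient-sensing kinase known to promote glycolytic gene expression through HIF-1alpha and Myc in other systems, and most steps have several isoforms whose use differs between tissues.

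On each array, 33.0% to 37.7% of 22523 probes were detected (detection p of at most 0.01). The median raw signal was 74.3 to 82.7 on 10 arrays, 105.9 on GN5 vehicle replicate 2 and 96.2 on GN5 vehicle replicate 3, so the number of genes called in each comparison that uses them is also given without them. Of 11 hepatocyte markers with a probe, GN5 cells expressed only transferrin (Tf) on all 3 arrays of a group and H5D cells only Tf and Asgr1, and albumin was not detected in either line. Of 6 biliary and epithelial markers with a probe, Krt7 and Krt8 were detected on all 3 arrays of every group, Krt19 in both H5D groups only, and Spp1 in every group but GN5 with vehicle. Of 6 mesenchymal markers with a probe, Vim and S100a4 were detected in every group, and Col1a1, Col1a2 and Tagln in GN5 cells only.

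Of the 33 genes, 21 were detected on all 12 arrays. Slc2a1 (the Glut1 glucose transporter), Pfkfb2, Pfkfb3 and Pfkfb4 (enzymes that set fructose 2,6-bisphosphate), Aldoc (an aldolase), Pdk4 (a pyruvate dehydrogenase kinase) and Slc16a3 (the lactate exporter Mct4) were detected on 0 of 12 arrays. Slc2a3 (Glut3) was detected on 3 arrays, 2 of H5D with rapamycin and 1 of H5D with vehicle, and Pgam2 (muscle phosphoglycerate mutase) on 1, of GN5 with rapamycin. Neither Glut transporter was therefore tested. Values below are background-corrected, quantile-normalized log2 signals, and a level is set only against the same probe in other samples.

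In GN5 cells, 8 transcripts of enzymes between hexokinase and lactate dehydrogenase fell with rapamycin. Of 23 genes tested, 8 fell, 0 rose and 15 did not pass (limma, adjusted p below 0.05), against 6.91% of all 7449 probes tested, of which 3.46% were lower and 3.45% higher. After scaling to a common median 12 genes were lower, against 10.1% of all probes lower and 1.38% higher. The rapamycin arrays all lay below the vehicle arrays for 11 genes and above them for 0, against 13.8% and 14% of all probes. Of the 23 genes, 18 had a fold change below 0, against 48.8% of all probes, and their median log2 fold change was -0.24, against 0.01 over all probes tested. By step, 4 of 8 genes of upper glycolysis fell, 3 of 5 of lower glycolysis and 1 of 3 of the lactate step, while 0 of 4 pyruvate kinase and pyruvate dehydrogenase kinase genes and 0 of 3 pentose phosphate genes passed.

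At the lactate step, Ldha, the lactate dehydrogenase subunit of glycolytic tissue, had log2 signals of 11.06, 11.09 and 10.91 in GN5 cells with rapamycin, against 11.73, 11.60 and 11.66 in GN5 cells with vehicle. All 3 rapamycin arrays lay below all 3 vehicle arrays. The log2 fold change of Ldha was -0.64 (SE 0.097), a fall of 1.56-fold, with an adjusted p of 0.00295 in limma. Ldhb, the subunit of oxidative tissue, stood at -0.24 (adjusted p = 0.221) although its groups did not overlap (8.58, 8.58 and 8.51 in GN5 cells with rapamycin, against 8.59, 8.81 and 9.0 in GN5 cells with vehicle), and Slc16a1, the monocarboxylate transporter Mct1, at -0.13 (adjusted p = 0.435).

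In lower glycolysis Eno3, the enolase known from muscle, had log2 signals of 8.04, 7.93 and 7.96 in GN5 cells with rapamycin, against 8.43, 8.76 and 9.05 in GN5 cells with vehicle. The groups did not overlap, and the vehicle arrays spread more (SD 0.31) than the rapamycin arrays (SD 0.06). Eno3 fell 1.70-fold (-0.77, SE 0.14, adjusted p = 0.00824). Of 6 skeletal muscle markers, 0 were detected on all 3 arrays of any group, and their summed signal was 162.9 to 170.4 in GN5 cells with rapamycin and 167.3 to 177.0 in GN5 cells with vehicle.

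The other falls of lower glycolysis were at the steps between triose phosphate and phosphoglycerate. Gapdh, glyceraldehyde 3-phosphate dehydrogenase, had log2 signals of 12.78, 12.66 and 12.54 in GN5 cells with rapamycin, against 12.92, 13.32 and 13.35 in GN5 cells with vehicle, and fell 1.45-fold (-0.53, SE 0.127, adjusted p = 0.0293). Pgk1, the phosphoglycerate kinase that makes the first ATP of the pathway, had 11.25, 11.35 and 11.16 in GN5 cells with rapamycin, against 11.56, 11.81 and 11.92 in GN5 cells with vehicle, and fell 1.42-fold (-0.51, SE 0.113, adjusted p = 0.0225). In both genes the groups did not overlap, and vehicle replicate 1 lay nearest to the rapamycin arrays, as it did for Eno3. The general enolase Eno1 (-0.38, adjusted p = 0.103) and the neuronal enolase Eno2 (-0.11, adjusted p = 0.545) did not pass, and their groups overlapped.

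Upper glycolysis gave 4 falls of similar size. Hk2, the inducible hexokinase, had log2 signals of 5.90, 5.99 and 5.89 in GN5 cells with rapamycin, against 6.47, 6.22 and 6.29 in GN5 cells with vehicle (-0.40, SE 0.1, adjusted p = 0.0381). Pfkl, the liver type of phosphofructokinase, had 6.76, 6.92 and 6.87 in GN5 cells with rapamycin, against 7.21, 7.27 and 7.25 in GN5 cells with vehicle (-0.40, SE 0.0938, adjusted p = 0.0289). In both genes every rapamycin array was below every vehicle array. Tpi1, the triose phosphate isomerase, had 12.66, 12.67 and 12.58 in GN5 cells with rapamycin, against 13.12, 13.03 and 13.02 in GN5 cells with vehicle (-0.42, SE 0.0919, adjusted p = 0.0207). Aldoa, the aldolase of most tissues, was read by both of its probes: the brighter had 10.74, 10.74 and 10.78 in GN5 cells with rapamycin, against 11.09, 11.24 and 11.19 in GN5 cells with vehicle (-0.42, SE 0.0928, adjusted p = 0.0219), and the dimmer stood at -0.60 (SE 0.0907, adjusted p = 0.00299). Here too no array of one group reached the other. The platelet phosphofructokinase Pfkp (-0.30, adjusted p = 0.0879) also had groups that did not overlap but did not pass, and Gpi, Pfkm and Pfkfb1 lay between -0.09 and 0.12.

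**Figure D1:**
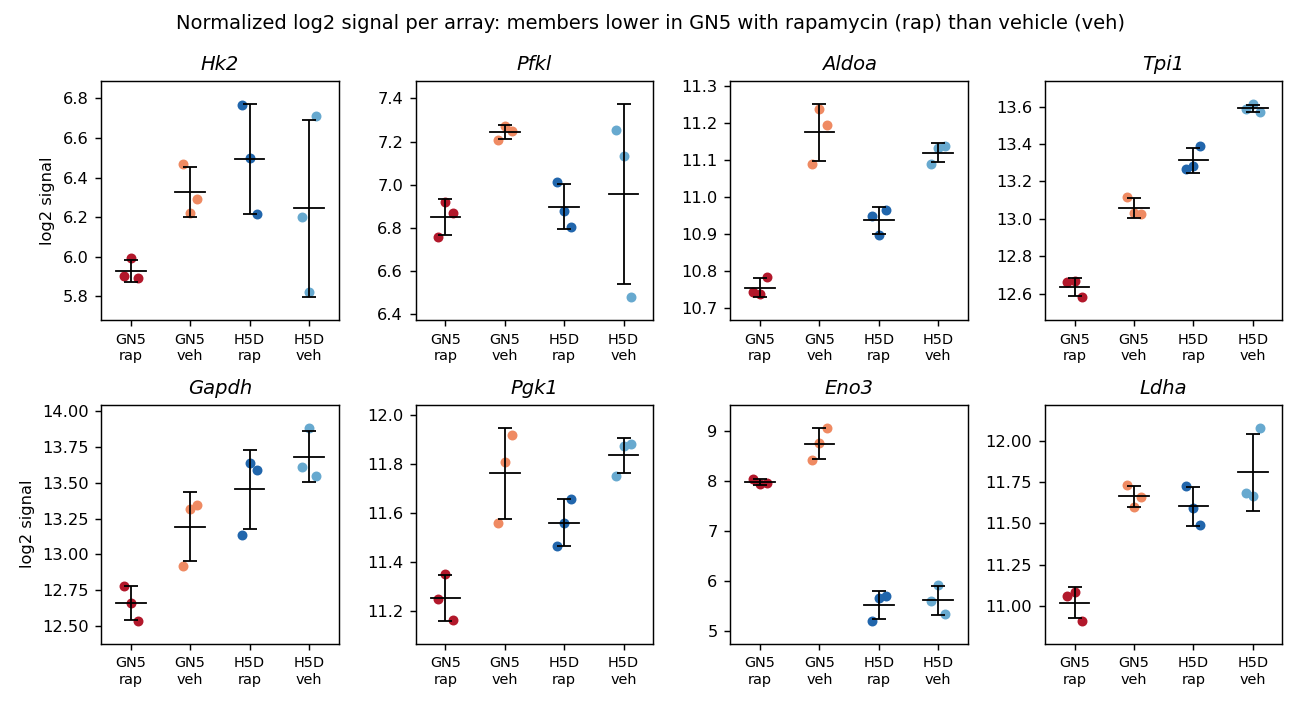
Normalized log2 signal of the 8 genes lower in GN5 cells with rapamycin, on each of 12 arrays (points), with the mean and SD of 3 arrays (bars); each panel has its own axis, which does not start at 0. In every panel the 3 GN5 rapamycin arrays lie below the 3 GN5 vehicle arrays.

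No gene of the pyruvate and pentose phosphate steps passed. Pdk1, a kinase that switches pyruvate dehydrogenase off, stood at -0.36 with groups apart (8.95, 8.87 and 8.76 in GN5 cells with rapamycin, against 9.20, 9.34 and 9.13 in GN5 cells with vehicle) but did not pass (adjusted p = 0.0537). Pdk2, Pdk3 and Pkm lay between -0.02 and 0.06, and the pentose phosphate genes Pgls, Taldo1 and Rpia between -0.20 and 0.25. Pgls, the lactonase that follows the first oxidation, had the largest of these changes, with 10.85, 10.62 and 10.71 in GN5 cells with rapamycin, against 10.36, 10.40 and 10.67 in GN5 cells with vehicle (0.25, SE 0.113, adjusted p = 0.203). Its groups overlapped through vehicle replicate 3. Taldo1, transaldolase, had 12.25, 12.14 and 12.23 in GN5 cells with rapamycin, against 12.15, 12.20 and 12.23 in GN5 cells with vehicle, with a 95% confidence interval of the difference from -0.19 to 0.22.

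Most of these calls were lost when 1 array was left out. Hk2 lost its call whichever array was left out, and also with the values normalized by the study. Ldha passed whichever array was left out, and also without GN5 vehicle replicates 2 and 3 together (-0.71, adjusted p = 0.0221). Eno3 was called without each array but GN5 vehicle replicate 2 (adjusted p = 0.0528). Without any 1 of the rapamycin arrays 2 genes (Ldha and Eno3) were called, without vehicle replicate 2 only Ldha, without vehicle replicate 3 there were 5 (Aldoa, Tpi1, Eno3, Ldha and Pdk1) and without vehicle replicate 1 there were 9 (all but Hk2, with Eno1 and Pdk1 added). The adjusted p of the other genes then reached at most 0.136 for Hk2, 0.114 for Pfkl, 0.0981 for Aldoa, 0.0963 for Tpi1, 0.137 for Gapdh and 0.101 for Pgk1. Without vehicle replicates 2 and 3 together, Eno3 stood at -0.45 (adjusted p = 0.102), Gapdh at -0.26 (0.393) and Pgk1 at -0.30 (0.294).

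The promoters of the genes that fell were read for the letters ACGTG, a form of the core of hypoxia response elements, on either strand. Other forms of that core were not searched. Of 27457 rat promoters (300 bases around the start of each gene, RefSeq, GRCr8), 19.7% held them, against 12 of 30 of the genes described here that have a promoter in the table. The letters were in 2 of 7 promoters of genes that fell in GN5 cells and in 7 of 14 of genes tested there and not called (the table holds none for Pgk1). CACGTG, the E-box that contains them, was in 6.65% of all promoters and in 4 of these 30. The pair that fell and hold ACGTG are shown because Ldha carries 3 matches, of which a pair overlap in one CACGTG, and Gapdh 1; capitals mark the matches (ACGTG or its reverse complement CACGT). The Ldha promoter lies at chr1:106507842-106508141 on the plus strand and the Gapdh promoter at chr4:159652418-159652717 on the minus strand, both 5′ to 3′ along the gene.
Ldha: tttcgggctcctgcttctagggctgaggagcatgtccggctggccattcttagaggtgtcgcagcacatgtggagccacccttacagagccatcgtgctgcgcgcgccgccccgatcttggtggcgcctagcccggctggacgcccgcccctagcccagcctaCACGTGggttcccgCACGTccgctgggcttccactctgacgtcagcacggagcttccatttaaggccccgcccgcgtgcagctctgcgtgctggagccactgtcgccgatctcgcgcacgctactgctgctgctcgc
Gapdh: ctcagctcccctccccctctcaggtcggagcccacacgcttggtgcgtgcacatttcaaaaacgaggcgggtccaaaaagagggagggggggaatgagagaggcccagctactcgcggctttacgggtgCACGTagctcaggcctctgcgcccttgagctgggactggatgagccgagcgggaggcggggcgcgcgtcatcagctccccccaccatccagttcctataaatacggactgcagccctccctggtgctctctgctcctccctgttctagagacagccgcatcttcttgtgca

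In H5D cells 0 of 23 genes passed, against 0.722% of all 7895 probes tested, 0.317% higher and 0.405% lower. At an unadjusted p below 0.05 there were 7 genes (Pfkp, Tpi1, Pgk1, Eno1, Eno2, Slc16a1 and Rpia) and 1317 probes in all, and the methods' t-test called 5 of the 6 genes past its fold filter (Pfkp, Tpi1, Pgk1, Eno2 and Rpia), where it called 46.3% of all 763 probes past that filter after Benjamini-Hochberg adjustment and 62.6% unadjusted. That filter used the same arrays as the test, and the adjustment covered only probes past it, so its counts are not comparable with those of limma. In GN5 cells the same test called 8 of 9 genes past the filter, against 65.1% of 860 probes after adjustment and 76.4% unadjusted. The median log2 fold change in H5D cells was -0.11 over the 23 genes and -0.01 over all probes tested, and 20 of the 23 lay below 0, against 52.3% of all probes. Scaling to a common median shifted all probes upward (median 0.17) and the 23 genes with them (median 0.04, with 11 below 0). Relative to the median of all probes, the median of the 23 genes was -0.10 as normalized here and -0.14 under that scaling, where 1.98% of all probes were called higher and 0.101% lower. The rapamycin arrays all lay below the vehicle arrays for 7 genes and above them for 1, against 12.3% and 10.8% of all probes.

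Of the enolases, Eno2 had log2 signals of 7.85, 7.61 and 7.57 in H5D cells with rapamycin, against 8.14, 8.14 and 7.95 in H5D cells with vehicle (-0.40, SE 0.116, adjusted p = 0.139). Pgk1 had 11.47, 11.56 and 11.66 in H5D cells with rapamycin, against 11.75, 11.87 and 11.88 in H5D cells with vehicle (-0.27, SE 0.102, adjusted p = 0.229). Neither gene's groups overlapped, and neither did those of Pfkp, Aldoa (brighter probe), Tpi1, Eno1 and Slc16a1, whose rapamycin arrays were all lower. The dimmer Aldoa probe did overlap, with 10.59, 10.32 and 10.35 in H5D cells with rapamycin, against 10.63, 10.79 and 10.29 in H5D cells with vehicle. Tpi1 had 13.26, 13.28 and 13.39 in H5D cells with rapamycin, against 13.59, 13.61 and 13.57 in H5D cells with vehicle (-0.28, SE 0.0954, adjusted p = 0.196). Pfkp had 9.81, 9.70 and 9.91 in H5D cells with rapamycin, against 10.15, 10.03 and 10.22 in H5D cells with vehicle (-0.33, SE 0.106, adjusted p = 0.173). In neither gene did any rapamycin array reach a vehicle array. Slc16a1 had 11.61, 11.68 and 11.84 in H5D cells with rapamycin, against 11.99, 11.88 and 11.99 in H5D cells with vehicle (-0.25, SE 0.104, adjusted p = 0.275). Ldha had 11.73, 11.60 and 11.49 in H5D cells with rapamycin, against 11.68, 11.67 and 12.08 in H5D cells with vehicle (-0.21, SE 0.134, adjusted p = 0.474), and its groups overlapped. Hk2 spread widely, with 6.77, 6.50 and 6.22 in H5D cells with rapamycin, against 6.20, 5.82 and 6.71 in H5D cells with vehicle (0.25, SE 0.217, adjusted p = 0.602). The Hk2 groups overlapped. Rpia, the ribose 5-phosphate isomerase, was the only gene whose H5D rapamycin arrays all lay above the vehicle arrays, at 10.69, 10.71 and 10.62 against 10.40, 10.17 and 10.30 in H5D cells with vehicle (0.38, SE 0.103, adjusted p = 0.117).

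**Figure D2:**
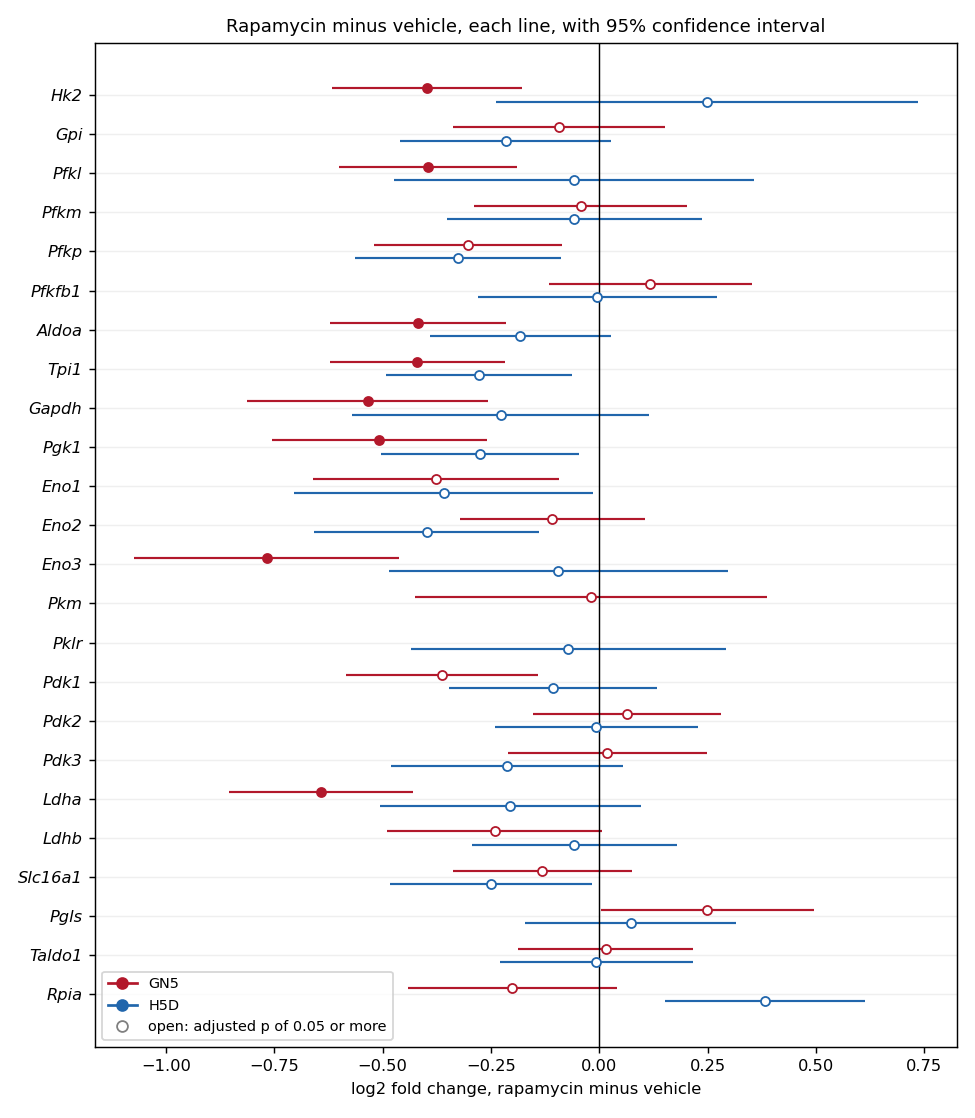
Log2 fold change of rapamycin minus vehicle (x axis) with its 95% confidence interval for each tested gene (rows, in order of the pathway), in GN5 (red) and H5D (blue) cells; filled points passed at an adjusted p below 0.05. The 8 filled points are all in GN5 cells and below 0, and 0 of 23 H5D points are filled.

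The difference between the responses of the lines was tested directly, and 0 of 24 genes passed, against 1.41% of all 8539 probes tested. Unadjusted p was below 0.05 for 4 genes (Hk2, Eno3, Ldha and Rpia), with 1235 probes in all. The difference, GN5 minus H5D, was -0.58 for Rpia (SE 0.148, adjusted p = 0.0738), -0.67 for Eno3 (SE 0.244, adjusted p = 0.205), -0.65 for Hk2 (SE 0.258, adjusted p = 0.261) and -0.44 for Ldha (SE 0.165, adjusted p = 0.229). For Ldha the 95% confidence interval ran from -0.79 to -0.09, and for Eno1 (-0.02) from -0.48 to 0.44. After scaling to a common median 3 passed (Eno3, Ldha and Rpia), and with the values normalized by the study 1 (Rpia), while 0 passed without GN5 vehicle replicates 2 and 3 together. Under that common scaling 2.76% of all probes were called with a lower and 0.187% with a higher difference. Hence 8 calls in GN5 cells and 0 in H5D cells do not by themselves show a difference between the lines.

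Averaged over both lines, 9 of 24 genes fell with rapamycin and 0 rose, against 9.11% of all probes called, 4.75% higher and 4.36% lower. All 5 tested genes of lower glycolysis were among them: Gapdh (-0.38, adjusted p = 0.0375), Pgk1 (-0.39, 0.00634), Eno1 (-0.37, 0.0456), Eno2 (-0.25, 0.044) and Eno3 (-0.43, 0.0396). The others were Pfkp (-0.31, adjusted p = 0.0121), Aldoa by its brighter probe (-0.30, 0.00701), Tpi1 (-0.35, 0.00311) and Ldha (-0.42, 0.00654). Pfkp, Aldoa, Tpi1, Pgk1 and Ldha passed whichever of the 12 arrays was left out. Gapdh, Eno1, Eno2 and Eno3 each lost the call without 7 to 9 of the 12 arrays, where their adjusted p reached 0.0911, 0.111, 0.105 and 0.0952. After scaling to a common median 5 were called (Tpi1, Gapdh, Pgk1, Eno3 and Ldha), and without GN5 vehicle replicates 2 and 3 together 1 was (Tpi1).

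More genes differed between the lines than between the treatments. With vehicle, 16 of 24 genes differed between GN5 and H5D cells, 6 higher and 10 lower in GN5 cells, against 63.3% of all 8279 probes tested (32.3% higher and 31% lower). With rapamycin 19 of 24 differed, 5 higher and 14 lower, against 72.2% of 8288 probes (38.1% higher and 34.1% lower, or 22.4% higher and 42.3% lower after scaling to a common median). Both shares of genes called are near those of all probes. The arrays of the lines did not overlap for 6 genes higher and 12 lower in GN5 cells with vehicle (34.2% and 32.9% of all probes), and for 5 higher and 15 lower with rapamycin (39.1% and 34.9%). Under both treatments 5 genes were higher in GN5 cells (Gpi, Pfkfb1, Eno3, Pkm and Pdk3) and 10 were lower (Pfkm, Pfkp, Tpi1, Gapdh, Pklr, Pdk2, Ldhb, Slc16a1, Pgls and Rpia).

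The phosphofructokinase step differed mostly through Pfkp, which had log2 signals of 7.46, 7.37 and 7.36 in GN5 cells with vehicle, against 10.15, 10.03 and 10.22 in H5D cells with vehicle. Every GN5 array lay below every H5D array, a 6.67-fold lower level in GN5 cells (-2.74, SE 0.105, adjusted p = 2.17e-09). Pfkm, the muscle type, was 1.37-fold lower in GN5 cells (-0.46, adjusted p = 0.0177), whereas Pfkl did not pass (0.29, adjusted p = 0.182). Pfkfb1, the liver type of the enzyme that sets fructose 2,6-bisphosphate, had 7.63, 7.54 and 7.64 in GN5 cells with vehicle, against 6.73, 6.45 and 6.33 in H5D cells with vehicle. It was 2.14-fold higher in GN5 cells (1.10, adjusted p = 1.79e-05), and Gpi, which interconverts the hexose phosphates, 1.48-fold higher (0.56, adjusted p = 0.00308). The Aldoa probes disagreed, the brighter at 0.05 (adjusted p = 0.664) and the dimmer at 0.41 (adjusted p = 0.0203).

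Among the enolases, Eno3 had 8.43, 8.76 and 9.05 in GN5 cells with vehicle, against 5.60, 5.93 and 5.35 in H5D cells with vehicle. It was 8.71-fold higher in GN5 cells with vehicle (3.12, SE 0.181, adjusted p = 6.6e-08) and 5.46-fold higher in GN5 cells with rapamycin (2.45, SE 0.127, adjusted p = 3.06e-09), where the H5D group had Eno3 above background on 2 of 3 arrays. The Eno3 values of H5D cells with vehicle lay near the lowest signals detected on those arrays (5.29, 5.45 and 5.29). Both Eno3 folds are therefore set against signal near background. Eno1 and Eno2 did not pass with vehicle. Tpi1 (-0.53, adjusted p = 0.000811) and Gapdh (-0.49, adjusted p = 0.0131) were lower in GN5 cells with vehicle. Hk2, Pgk1, Eno1 and Ldha were lower in GN5 cells with rapamycin alone (log2 fold changes of -0.56, -0.31, -0.30 and -0.58), and Pdk1 was higher in GN5 cells with vehicle alone (0.32, adjusted p = 0.0255), but the difference between treatments did not pass for any of them.

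The lactate step separated the lines through Ldhb and Slc16a1. Ldhb had log2 signals of 8.59, 8.81 and 9.0 in GN5 cells with vehicle, against 11.15, 11.19 and 11.02 in H5D cells with vehicle, and was 5.00-fold lower in GN5 cells (-2.32, SE 0.126, adjusted p = 3.88e-08). Slc16a1 had 9.45, 9.46 and 9.34 in GN5 cells with vehicle, against 11.99, 11.88 and 11.99 in H5D cells with vehicle, and was 5.80-fold lower in GN5 cells (-2.54, SE 0.103, adjusted p = 3.49e-09). In both genes every GN5 array lay below every H5D array. Ldha did not differ beyond its spread with vehicle (-0.15, 95% confidence interval -0.44 to 0.14).

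The pyruvate kinases differed in opposite directions. Pkm, the kinase of most tissues, had log2 signals of 5.82, 6.72 and 6.48 in GN5 cells with vehicle, against 4.95, 5.23 and 5.37 in H5D cells with vehicle, where it was detected on 1 of 3 arrays, so the fitted difference of 1.15 (SE 0.208, adjusted p = 0.000596) was set mostly against signal at background. The lowest signals detected on the 3 GN5 vehicle arrays were 5.42, 5.65 and 5.58, so Pkm was dim there too, most of all on replicate 1. With rapamycin Pkm was not detected on any H5D array and was at least 1.89-fold higher in GN5 cells (adjusted p = 9.49e-08). Pklr, the liver and red cell kinase, had 4.92, 4.71 and 4.88 in GN5 cells with vehicle, where it was not detected on any array, against 6.45, 6.36 and 6.19 in H5D cells with vehicle. It was at least 1.72-fold lower in GN5 cells with vehicle (adjusted p = 7.44e-07) and at least 1.63-fold lower with rapamycin (adjusted p = 6.16e-07). Such a bound sets the mean of the brighter group against the lowest detected signal of the arrays of the dimmer group. The bound itself was not tested. The adjusted p beside a bound, here and below, is that of the fitted limma difference, which is set against signal at background. Genes given as a bound passed the detection filter only through the brighter group.

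The pyruvate dehydrogenase kinases also split. Pdk2 had log2 signals of 7.58, 7.38 and 7.52 in GN5 cells with vehicle, against 8.77, 8.70 and 8.88 in H5D cells with vehicle, and was 2.45-fold lower in GN5 cells (-1.29, adjusted p = 1.76e-06). Pdk3 had 7.78, 7.75 and 7.99 in GN5 cells with vehicle, against 6.99, 6.96 and 6.65 in H5D cells with vehicle, and was 1.96-fold higher in GN5 cells (0.97, adjusted p = 6.18e-05). Neither gene's arrays overlapped between the lines. In the pentose phosphate pathway, Pgls was 1.37-fold lower in GN5 cells with vehicle (-0.45, adjusted p = 0.00686) and Rpia 1.56-fold lower (-0.64, adjusted p = 0.000572), while Taldo1 did not pass (-0.21, adjusted p = 0.101). With rapamycin Rpia had 9.48, 9.29 and 9.58 in GN5 cells, against 10.69, 10.71 and 10.62 in H5D cells, and was 2.34-fold lower in GN5 cells (-1.23, adjusted p = 2.88e-07).

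**Figure D3:**
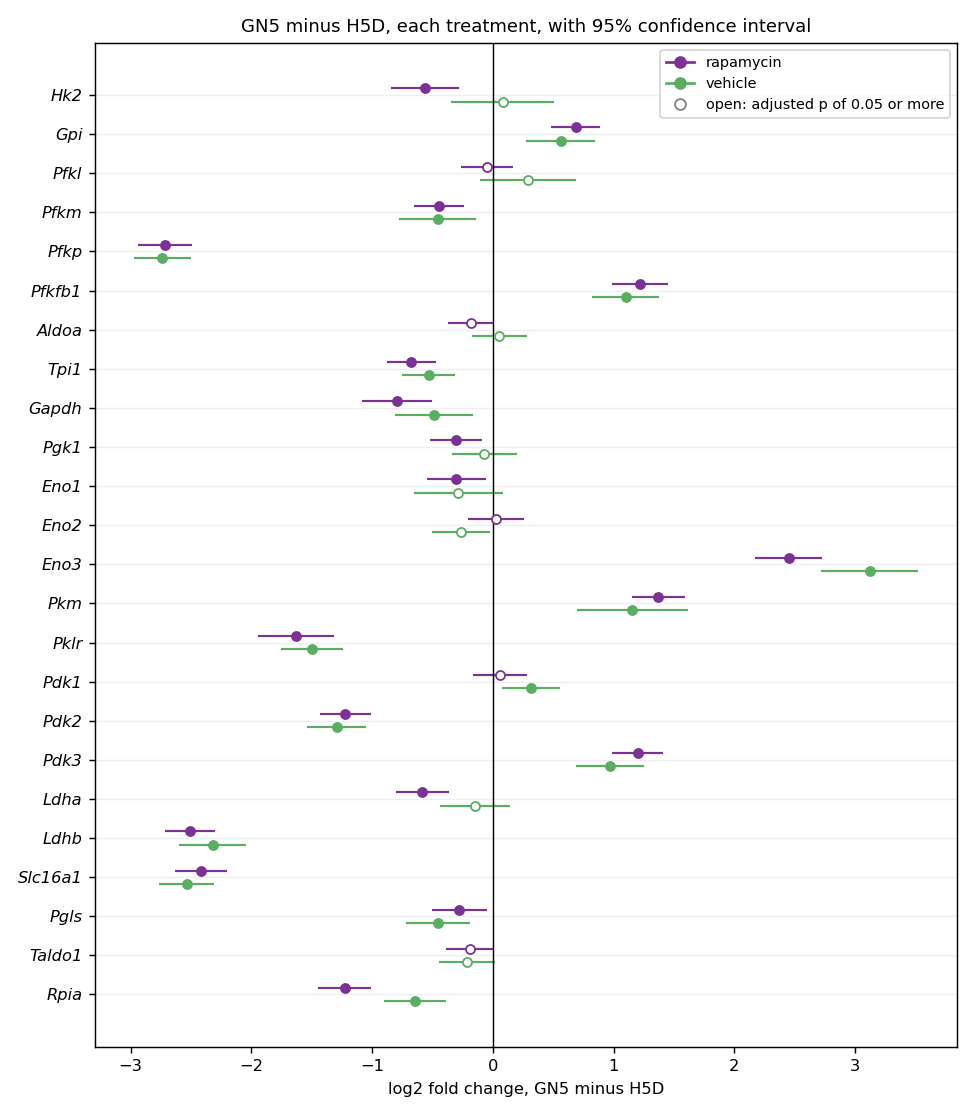
Log2 fold change of GN5 minus H5D cells (x axis) with its 95% confidence interval for each tested gene (rows), with rapamycin (purple) and with vehicle (green); filled points passed at an adjusted p below 0.05. Pfkp, Slc16a1 and Ldhb lie below -2 and Eno3 above 2 under both treatments.

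Without any 1 array, most line differences were still called. With vehicle, only the calls of Pfkm (adjusted p = 0.0642 without GN5 vehicle replicate 1, 0.063 without GN5 vehicle replicate 2 and 0.0732 without H5D vehicle replicate 3), Pdk1 (0.107 without GN5 vehicle replicate 2 and 0.0736 without H5D vehicle replicate 3) and Gapdh (0.0523 without GN5 vehicle replicate 1) ended. With rapamycin, only those of Eno1 (at most 0.114, lost without GN5 rapamycin replicates 1 or 3 or H5D rapamycin replicates 2 or 3), Pgls (at most 0.115, lost without GN5 rapamycin replicates 2 or 3 or H5D rapamycin replicate 3) and Pgk1 (0.0578 without GN5 rapamycin replicate 3) ended. Without GN5 vehicle replicates 2 and 3 together, 14 genes differed with vehicle.

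Isoform use was described as the difference of a pair of isoforms on each array, compared only between groups and with no test. Pkm minus Pklr was 2.65 higher in GN5 cells than in H5D cells with vehicle and 3.0 higher with rapamycin (each includes a kinase at background in one line). Pfkl minus Pfkp was 3.03 higher in GN5 cells with vehicle and 2.67 higher with rapamycin. Ldha minus Ldhb was 2.18 and 1.92 higher in GN5 cells with vehicle and with rapamycin. In each of these pairs the arrays of the lines did not overlap. Eno1 minus Eno2 differed by -0.02 with vehicle, with overlap, whereas Eno1 minus Eno3, a pair chosen after its values were seen, was -3.41.

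The GN5 arrays separated by treatment in 2 of the 6 planned pairs with both isoforms detected on all 3 arrays of at least 1 group. Of all single probes, 14% had GN5 groups apart and higher with rapamycin and 13.8% apart and lower. The share over all pairs of probes was not computed, so this count of pairs does not show a shift of isoforms. Ldha minus Ldhb was 2.46 ± 0.05 in GN5 cells with rapamycin and 2.86 ± 0.25 in GN5 cells with vehicle (SD, n = 3 each), without overlap, and Pdk1 minus Pdk3 was 1.00 ± 0.09 in GN5 cells with rapamycin and 1.39 ± 0.23 in GN5 cells with vehicle, also without overlap. GN5 vehicle replicate 1 alone had 3.14 for Ldha minus Ldhb and 1.43 for Pdk1 minus Pdk3, in both pairs above all 3 GN5 rapamycin arrays. Pfkl minus Pfkp (-0.24 ± 0.03 in GN5 cells with rapamycin and -0.15 ± 0.08 in GN5 cells with vehicle) and Eno1 minus Eno2 overlapped. In H5D cells all 6 planned pairs overlapped between treatments. Of the pairs not planned, Eno1 minus Eno3 and Pdk1 minus Pdk2 also separated by treatment in GN5 cells. Pdk3 minus Pdk2 and Pfkm minus Pfkp overlapped there.

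**Figure D4:**
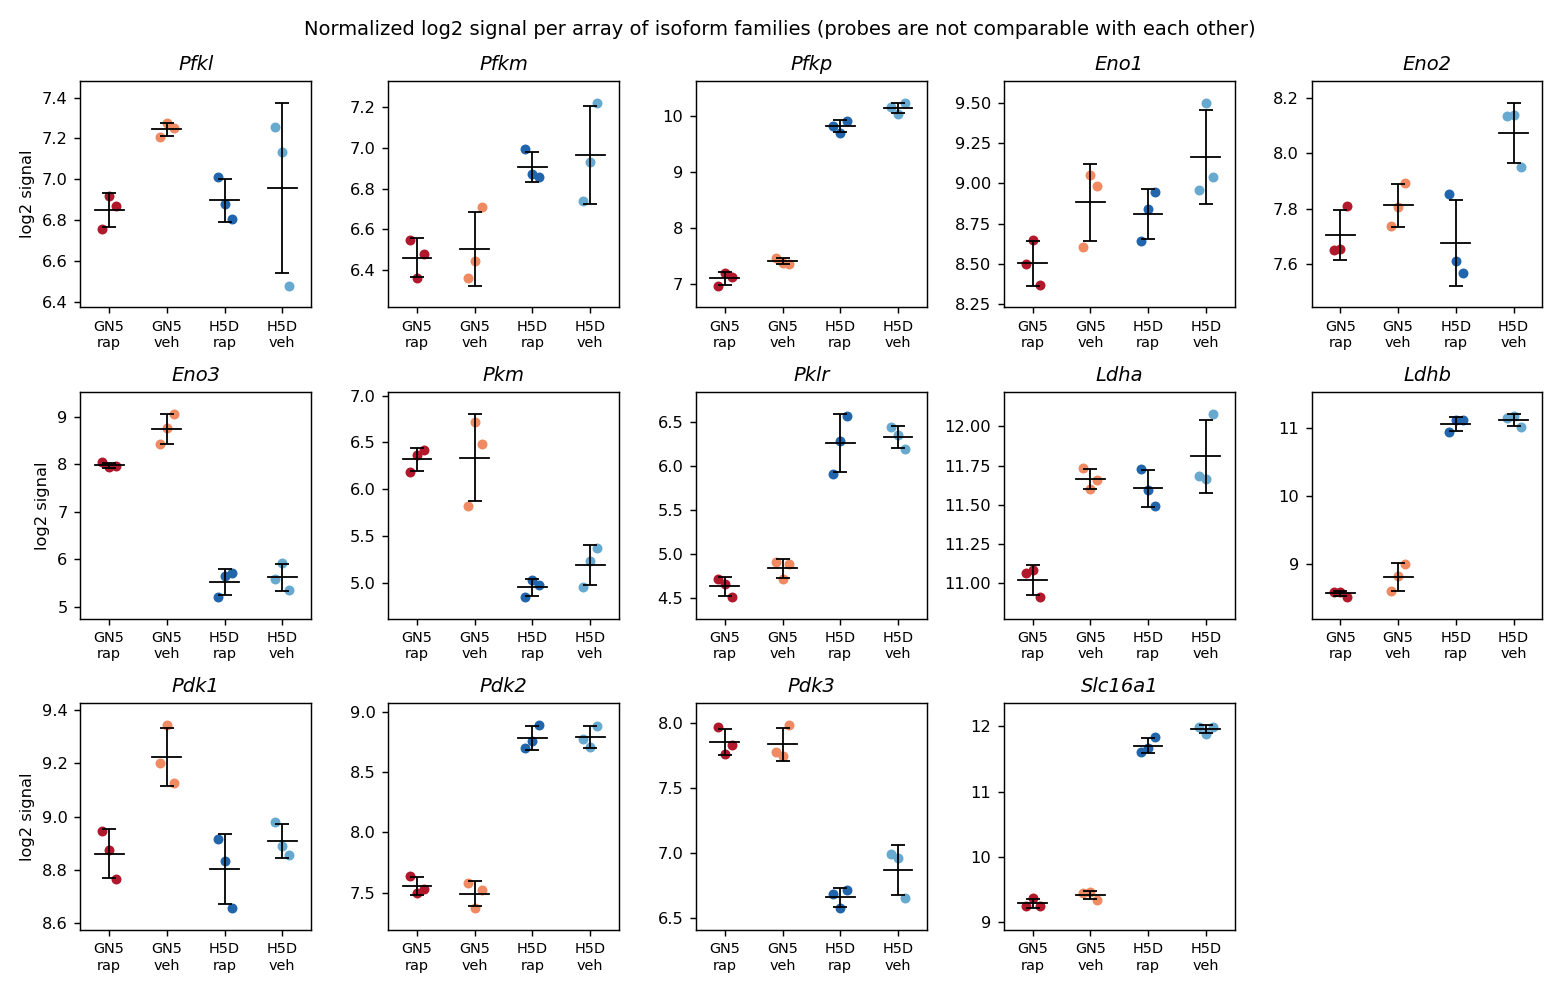
Normalized log2 signal of isoform families and of Slc16a1 on each of 12 arrays (points), with the mean and SD of 3 arrays (bars). Each gene has its own axis, which does not start at 0. Pklr was not detected in GN5 cells, and Pkm was detected on 1 H5D vehicle array and 0 H5D rapamycin arrays. Pfkp, Pklr, Ldhb, Pdk2 and Slc16a1 lie lower, and Eno3, Pkm and Pdk3 higher, in GN5 cells than in H5D cells.

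Of 68 other genes of glucose and pyruvate metabolism and its regulation, 55 had a probe. In GN5 cells 30 were tested, of which 1 rose and 1 fell with rapamycin, near the 3.45% of all probes higher and 3.46% lower. Txnip, an arrestin-like protein known to limit glucose uptake, rose (0.58, adjusted p = 0.0077), and Pck2, mitochondrial phosphoenolpyruvate carboxykinase, fell (-0.75, adjusted p = 0.0031). In H5D cells 0 of 34 passed, against 0.722% of all probes. Averaged over both lines, 2 of 35 rose and 1 fell, against 4.75% of all probes higher and 4.36% lower. Pdp1, a phosphatase that switches pyruvate dehydrogenase on (0.24, adjusted p = 0.046), and Txnip (0.32, adjusted p = 0.0097) rose, and Slc37a4, the glucose 6-phosphate transporter of the endoplasmic reticulum (-0.31, adjusted p = 0.025), fell. Calls of these other genes were not followed when an array was left out. The median of the 30 tested in GN5 cells was 0.01, against -0.24 for the 23 genes above.

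Between the lines with vehicle, of 35 of these other genes tested 8 were higher and 18 lower in GN5 cells, against 32.3% and 31% of all probes. Pygl, liver glycogen phosphorylase, was at least 13.7-fold lower in GN5 cells (adjusted p = 7.66e-11), and Gpd1, cytosolic glycerol 3-phosphate dehydrogenase, at least 4.88-fold lower (adjusted p = 1.14e-09), both without detection on any GN5 vehicle array. Slc2a2, the Glut2 transporter of hepatocytes, was at least 1.57-fold lower in GN5 cells (adjusted p = 3.89e-06) and was detected on all 3 arrays of each H5D group. Bsg, the chaperone of monocarboxylate transporters, was 3.08-fold higher in GN5 cells (1.62, adjusted p = 0.000203), and Mpc1, a subunit of the mitochondrial pyruvate carrier, 2.10-fold higher (1.07, adjusted p = 0.000271). Myc, a transcription factor known to promote glycolytic genes, was 8.48-fold lower in GN5 cells (-3.08, adjusted p = 7.25e-09). These genes were named for the size of their difference after it was seen. For those given as a bound, the adjusted p is again that of the fitted difference, set against signal at background.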

How the data were processed

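The deposited bead table held scanner signals as linear intensity with a detection p-value per probe, per the file headers, neither background-corrected nor normalized. A second deposited table held intensity values after quantile normalization by the authors. The submitters' processing notes name BeadStudio, with no version, and Partek 6.3. All columns of both tables were mapped to samples.

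The scanner intensity was background corrected from the detection p-values (normal-exponential model, offset 16), quantile normalized over 12 arrays and converted to log2 with neqc (limma 3.58.1, R 4.3.3), starting from the deposited values. A probe was tested where detected (p of at most 0.01) on all 3 arrays of at least 1 group compared; when an array was left out, detection was still judged on all arrays of the groups, a choice made after counts from both forms had been seen. Of 22523 probes, 13793 had 1 gene symbol, 8730 none and 0 several; 13752 matched a GRCr8 gene table by Entrez identifier. The brightest tested probe stood for a gene. Models (lmFit, eBayes, two-sided) used Benjamini-Hochberg adjustment over all probes tested, called at 0.05. Only the fit of GN5 rapamycin against GN5 vehicle was also run on simulated data, with independent normal noise. The other comparisons were not simulated. Genes called in at least 1 of 6 comparisons, and Pgk1, were named. The genes and lists were chosen with earlier results of these data known. The number of arrays limits the precision.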

Additional observations from a re-analysis of the deposited data

Results flagged for a closer look

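Rpia had log2 fold changes of opposite sign with rapamycin in the 2 lines (-0.20 in GN5 and 0.38 in H5D cells, neither of which passed). All 3 GN5 rapamycin arrays (9.48, 9.29 and 9.58) lay below the GN5 vehicle mean of 9.65, although they overlapped the GN5 vehicle arrays (9.73, 9.70 and 9.51), while all 3 H5D rapamycin arrays (10.69, 10.71 and 10.62) lay above the H5D vehicle mean of 10.29 and above every H5D vehicle array. The difference of the responses, GN5 minus H5D, was -0.58 (SE 0.148, limma) and did not pass (adjusted p = 0.0738), although it passed after scaling to a common median and with the values normalized by the authors. Groups of 3 arrays are too small to single out a deviating array.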

How the results depend on the processing

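The count of genes called moved with the processing as follows. In GN5 cells with rapamycin against vehicle, 8 genes were called, 12 after scaling to a common median, 4 with no filter on dim probes, 3 with the replicate number as a block (replicate block; 330 against 515 probes in all), and 1 without GN5 vehicle replicates 2 and 3 together. Leaving out 1 array gave 1 to 9. In H5D cells 0 became 1 with all 12 arrays in the fit and 5 by the methods' t-test, both unadjusted and after Benjamini-Hochberg, and leaving out 1 array gave 0. For the difference of the responses 0 became 3 after scaling to a common median and 1 with the authors' values, and stayed 0 when 1 array was left out. For the average 9 became 5 after scaling to a common median, 5 with no filter and 1 without GN5 vehicle replicates 2 and 3 together, with 5 to 10 when 1 array was left out. Between lines, leaving out 1 array gave 14 to 16 with vehicle and 16 to 19 with rapamycin. Judging detection on the remaining arrays, an alternative added after seeing the data, gave the same ranges, and again 1 in GN5 cells and 1 for the average without those vehicle arrays. The fit without both assumes that the lone GN5 vehicle array varies like the other groups. The cause was not tested.

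With a common median as the scaling, the median over all probes was -0.14 in GN5 cells and 0.17 in H5D cells, and relative to it the median of the 23 genes was -0.29 in GN5 and -0.14 in H5D cells, against -0.25 and -0.10 as normalized here. Pgk1 in GN5 against H5D cells with vehicle changed sign (0.11 under that scaling, against -0.07, and from -0.15 to 0.030 when 1 array was left out), and was not called in any of these. No gene called in a comparison changed sign there. Genes not called were not followed singly, apart from Pgk1, and some of them did change sign. Under the common scaling, genes below 0 went from 20 to 11 of 23 in H5D cells and from 18 to 22 of 23 in GN5 cells. For the difference of the responses they went from 13 to 23 of 24. Same-numbered arrays did not consistently deviate together (correlations -0.18, 0.13 and -0.24 in GN5 cells and 0.23, 0.01 and -0.39 in H5D cells). Between the lines the correlations were 0.35, 0.26 and -0.18 with vehicle and -0.13, -0.03 and -0.08 with rapamycin. No steady pairing by number was seen, but 3 arrays in a group cannot exclude one. Chip as a block was not run, since the headers give no chip, and the methods' t-test was not run for the difference or the average.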
